A study of Rattus norvegicus with 20 samples.

Results

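Zymosan was compared with PBS in cultured cortical microglia of the rat, across all genes that passed a filter on low values. The comparison used 8 of the 20 libraries of the series, Zymosan 1 to 4 and PBS 1 to 4, and 8858 of the 17310 gene symbols in the deposited table, those with at least 1 FPKM (fragments mapped to a transcript, scaled to its length and to the library's total) in at least 4 of the 20 libraries. The source animals were Sprague-Dawley males at 21 days of age. Their brains, without the cerebellum, were dissociated and freed of myelin. CD11b-positive cells were taken by immunopanning and plated without serum, and 5 days later zymosan (100 ug/mL) was added by replacing part of the medium. The PBS group is labelled by its vehicle alone. PAM3CSK4 (1 ng/mL) and LPS (1 ng/mL), with 4 libraries each, serve below as comparators. The fifth group, morphine (1 uM, 4 libraries), is not described here, but its libraries entered the filter and the estimate of the spread. CD11b marks myeloid cells in general, and the labels name neither the number of rats behind a library nor the time from treatment to lysis.

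Zymosan is a particle made from the yeast cell wall, rich in beta-glucan and mannan. Toll-like receptor 2 (TLR2), paired with TLR6, passes its signal through the adaptor MyD88 to the kinases IRAK and IKK and to the transcription factor NF-kB. Dectin-1, the product of Clec7a, binds beta-glucan, drives uptake of the particle and signals through the tyrosine kinase Syk and the adaptor CARD9. Microglia are the resident macrophages of the brain, and in macrophages these pathways are known for inducing cytokines, the phagocyte NADPH oxidase and prostaglandin synthesis.

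The libraries were not uniform. In each group replicate 1 belonged to a smaller set of 7 libraries that stood apart from the other 13. PBS 1 and Zymosan 1 listed the 18S ribosomal RNA gene Rn18s at 0. The sets were split at the widest gap along the main axis of variation left after group means, which held 63.2% of that variation. That axis came from the tested genes themselves, so leaving out the smaller set narrows the spread by construction. Calls within the larger set are therefore descriptive and no independent support. Libraries with the same number also deviated from their group means together. Results against PBS are therefore given with the number as a block, or within the larger set (3 PBS and 3 zymosan libraries). This is done where either changes the call of a gene named or moves a list's count by over 1.5 times. The pairing was also read from the tested genes, so calls with the block are likewise descriptive. It was weakest for replicate 2, where Zymosan 2 correlated 0.318 with PBS 2 and 0.344 with PBS 3. The block spanned all groups, and replicate 2 of morphine and of LPS was in the smaller set, unlike replicate 2 elsewhere. The summed FPKM of the 8 libraries lay between 355965 and 397357, and read depth is unknown because the table holds no counts. The 10 microglial markers summed to 1510 to 1710 FPKM with PBS and to 939 to 1060 with zymosan, and 7 of them fell. In bulk RNA, fewer cells of a type and less RNA per cell cannot be told apart. Among markers of other cells, 6 of 8 neuronal, 4 of 6 T or NK cell, 4 of 8 astrocyte and 3 of 6 neutrophil genes were at 0 in all 8 libraries, Gfap, Rbfox3, Cd3e and Mpo among them. The T or NK cell genes summed to at most 0.2 FPKM, the neuronal genes to 0.589 to 1.41 FPKM with PBS and 1.36 to 3.47 with zymosan, the astrocyte genes to 1.29 to 4.52 and 1.38 to 2.93, and the neutrophil genes to 0.97 to 4.17 and 0.93 to 6.25. Snap25 was the 1 neuronal marker called higher, from 0.954 ± 0.339 to 2.82 ± 0.988 FPKM. Of the neutrophil markers 1 was called higher and 1 lower, and the higher call was lost within the larger set. Oligodendrocyte genes summed to 26 to 44 FPKM with PBS and 13.7 to 27.6 with zymosan, endothelial genes to 19.8 to 44.3 and 18.6 to 33, and pericyte or fibroblast genes to at most 0.803. Among these, 1 oligodendrocyte and 2 endothelial markers were called lower. Markers of border macrophages and monocytes summed to 21.6 to 44.8 FPKM with PBS and to 49.9 to 198 with zymosan, and of these markers only Pf4, described below, rose. Lyve1, another of them, fell from 8.09 ± 3.56 to 1.72 ± 0.21 FPKM, and Mrc1 did not pass. The part of these differences in the results below was not tested.

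Zymosan raised fewer genes than it lowered, but the largest changes were increases. A gene was called when its limma p-value, adjusted by Benjamini and Hochberg over the 8858 genes, was under 0.05. By this rule 1670 genes (18.9%) changed, 413 higher (4.66%) and 1257 lower (14.2%). The counts given below for each gene list stand beside these shares. A change of at least 8-fold on the log2(FPKM + 1) scale, where genes of low level change less than in FPKM, was reached by 35 of the higher and 2 of the lower genes. At 2-fold the counts were 253 higher and 547 lower. On this scale a gene of low PBS level can rise far but fall only a little, so the 8-fold counts are uneven in part by construction. The libraries of the 2 groups did not overlap for 553 higher genes (6.24%) and 1759 lower genes (19.9%). FPKM is relative to each library's total, and the median log2 difference of all tested genes was −0.18. After median-ratio rescaling, which moved this median by over 0.1, 734 genes were higher (8.29%) and 811 lower (9.16%), so that 47.5% of the calls were higher in place of 24.7%. Blocking on the replicate number gave 2619 calls, 664 higher and 1955 lower, and the larger library set alone gave 3533, 934 higher and 2599 lower. Of the 413 higher genes, 76 were under 1 FPKM in every PBS library and could pass the filter only through libraries of other groups, zymosan included. The p-values of such genes are no independent support for an increase. Likewise 126 of the 1257 lower genes were under 1 FPKM in every zymosan library and could pass only through libraries of the other groups. P2ry12, P2ry13, Il16, Tnfsf13b, Klf2 and Entpd1, described below, are among them. Their p-values are no independent support for a decrease.

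**Figure D1:**
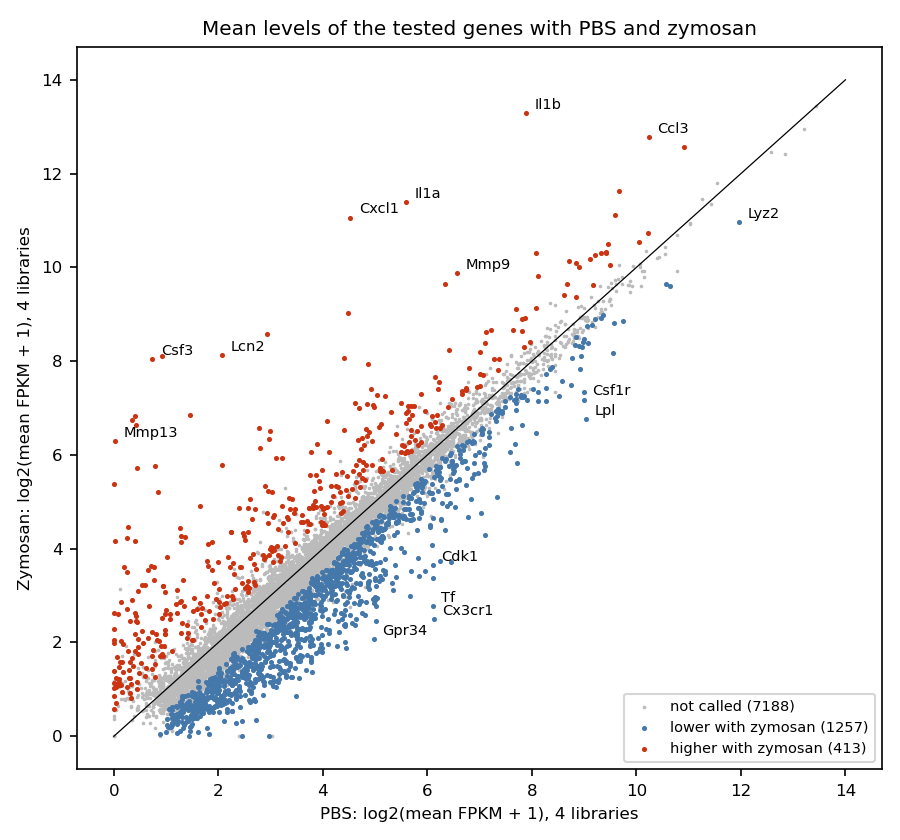
Mean level of each of the 8858 tested genes with PBS (horizontal) and with zymosan (vertical), as log2(mean FPKM + 1) over 4 libraries each; the line marks equal levels. The 413 genes called higher reach far above the line, with Il1b, Cxcl1 and Il1a among the most abundant, whereas the 1257 called lower lie close below it for the most part.

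The genes with the largest increases encoded secreted mediators, proteases and enzymes. Of the 30 largest among called genes with separate libraries and a mean of at least 5 FPKM, 9 were in the lists of chemokines, cytokines and growth factors and 6 in the list of matrix proteases. Csf3, granulocyte colony-stimulating factor, measured 0, 1.86, 0 and 0.82 FPKM in PBS 1 to 4 and 211, 269.6, 243 and 334 FPKM in Zymosan 1 to 4. The gene was close to 0 with PBS, and the groups were far apart. F3, which encodes tissue factor, the initiator of coagulation, measured 0.236, 0.252, 0.18 and 0.451 FPKM with PBS and 72, 98.4, 127 and 127 FPKM with zymosan (log2 difference 6.36, SE 0.29, adjusted p = 1.33e-11). With every PBS library under 1 FPKM, F3 passed the filter only through other groups, zymosan included, so its p-value is no independent support. Serpinb2, an inhibitor of plasminogen activators, was listed at 0 in every PBS library and measured 17.9, 24.9, 67.2 and 53 FPKM with zymosan, where Zymosan 1 was the lowest. Zymosan 1 was the lowest zymosan library for 20 of these 30 genes and for 211 of all 413 called higher.

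**Figure D2:**
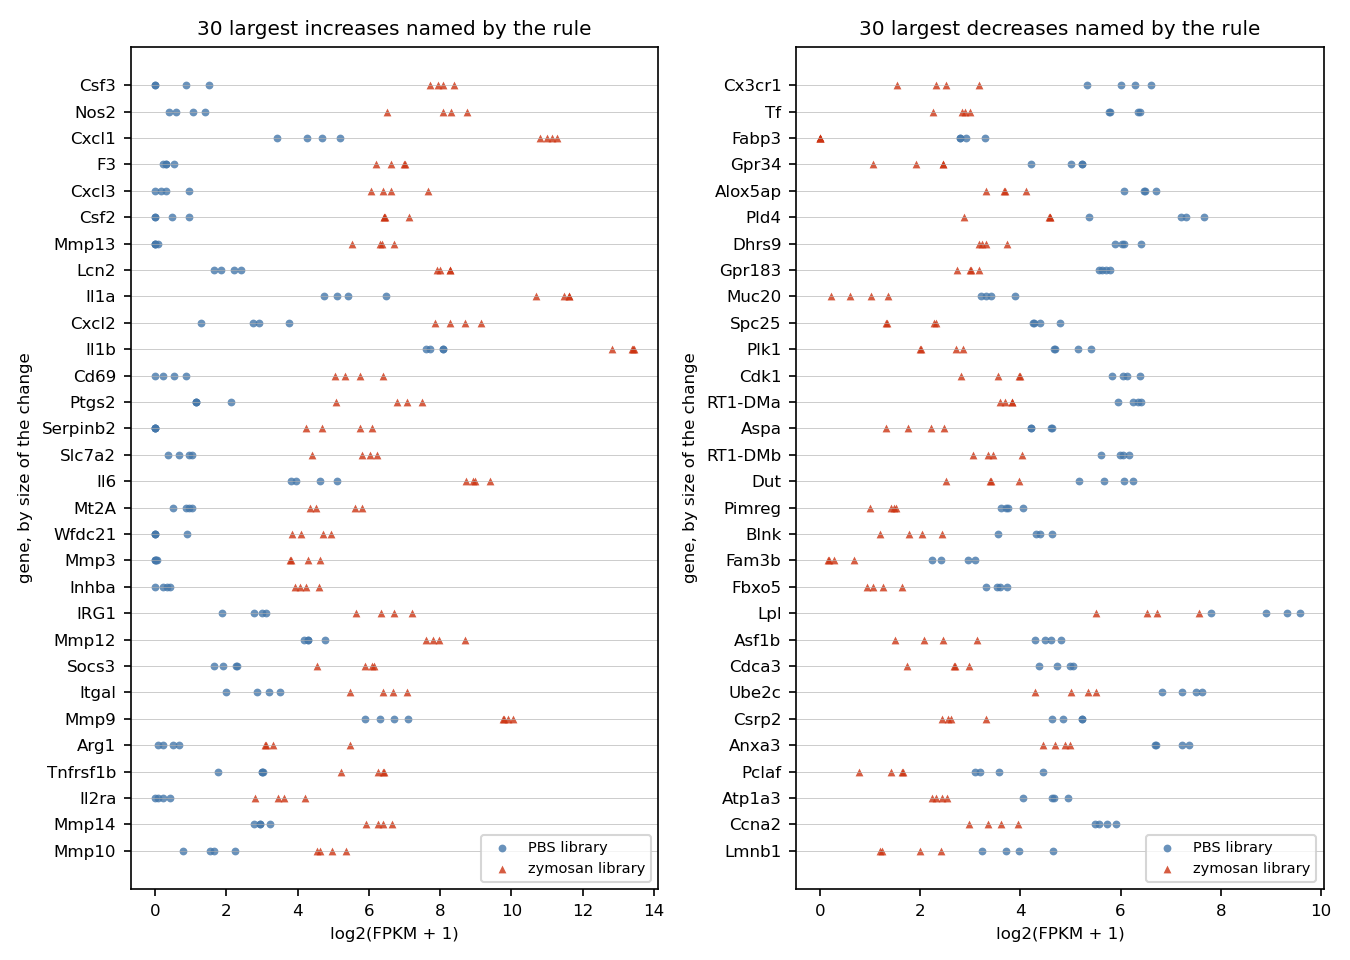
Level of the 30 largest increases (left) and decreases (right) named by the rule, as log2(FPKM + 1) in each PBS library (circles) and each zymosan library (triangles). The rule required separate groups, and the spread within a group is the feature to compare between genes: the zymosan libraries of Nos2, Ptgs2, Slc7a2 and Arg1 are spread more widely than those of Il1b and Mmp9.

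The mediators also took a larger share of the libraries. The 97 chemokine, interleukin, TNF superfamily, colony-stimulating and growth factor genes in the table, without osteopontin, took 2.04, 2.02, 1.52 and 2.54% of the summed FPKM in PBS 1 to 4 and 9.15, 10.5, 9.7 and 10.8% in Zymosan 1 to 4. Without osteopontin (Spp1) the groups were far apart and neither was widely spread. Spp1 belongs to the growth factor list and varied widely, at 9492 ± 6449 FPKM with PBS and 7968 ± 5844 with zymosan (mean ± SD). A share that includes it was not calculated. Il1b moved from rank 253 to rank 2 among the tested genes by mean FPKM, behind the ferritin gene Fth1, which held rank 1 in both groups. Il1a moved from rank 1320 to 11, Cxcl1 from 2604 to 14, Ccl3 from 20 to 4 and Ccl2 from 11 to 5.

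**Figure D3:**
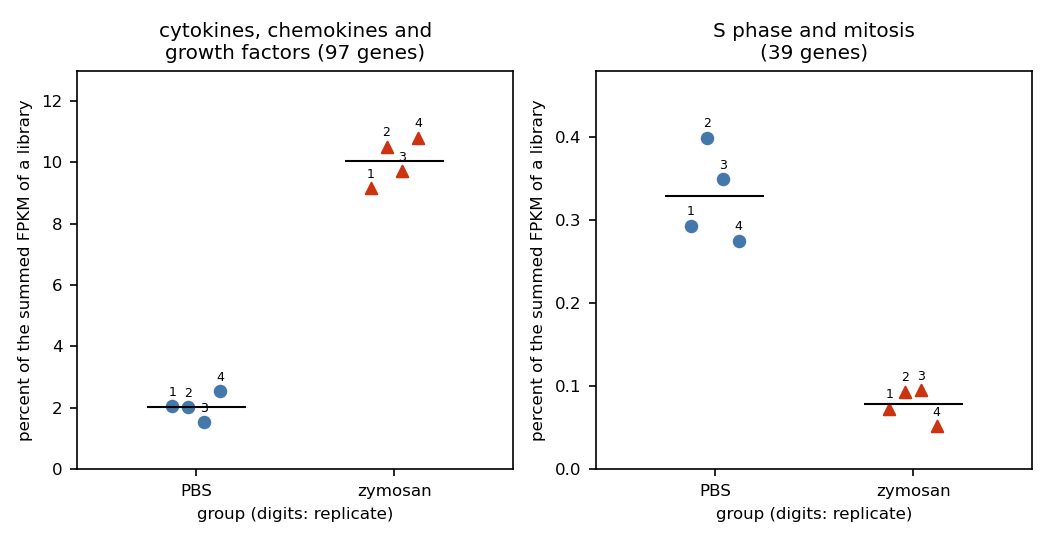
Percent of the summed FPKM of each library taken by 97 cytokine, chemokine and growth factor genes without osteopontin (left) and by 39 genes of S phase and mitosis (right). Points are libraries with their replicate number and lines are group means. The cytokine share is 1.52 to 2.54% with PBS and 9.15 to 10.8% with zymosan, and the S phase and mitosis share falls from 0.275 to 0.399% to 0.0513 to 0.0949%.

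Few receptors that bind zymosan were called. Some intervals were wide, such as 0.35 to 3.16 around the log2 difference of Clec4d, which did not pass. Clec7a, dectin-1 itself, was a low transcript at 3.71, 3.45, 3.16 and 4.93 FPKM in PBS 1 to 4 and 1.45, 4.16, 3.46 and 2.9 FPKM in Zymosan 1 to 4. The groups overlapped, and the log2 difference of −0.31 (95% interval −0.78 to 0.17) did not pass (adjusted p = 0.416). Tlr2 was more abundant, at 87.8, 144, 142 and 170.0 FPKM with PBS and 100.0, 199, 211 and 202 FPKM with zymosan. Its log2 difference of 0.37 did not pass in all libraries (adjusted p = 0.613) and was called within the larger library set (adjusted p = 0.00559). The same held for Tlr1 (1.65 ± 0.57 and 3.7 ± 1.15 FPKM, SD, n = 4 each here and below, adjusted p = 0.272 and 0.00137) and Tlr6 (9.43 ± 2.5 and 13.4 ± 4.56 FPKM, adjusted p = 0.57 and 0.00313). Cd14, an abundant co-receptor, measured 1128 ± 247 and 968 ± 177 FPKM, and Itgam, the CD11b gene used in the purification, 33.1 ± 12.4 and 37.8 ± 17.3 FPKM, with log2 differences of −0.21 and 0.12. The mannose receptor Mrc1 was near 4.94 ± 2.86 FPKM with PBS and 3.08 ± 1.66 with zymosan.

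Of the 15 tested receptor genes, 2 were called higher, Clec4e and Cd36, a share of 13.3%, and 0 lower. Among all tested genes 4.66% were higher and 18.9% were called in either direction. The list's median log2 difference was 0.37, against −0.18 for all tested genes. Clec4e, or Mincle, a lectin that signals through the Fc receptor gamma chain, measured 20, 18, 10.6 and 18.4 FPKM with PBS and 23.9, 33.6, 25.3 and 40.8 FPKM with zymosan. Its call (log2 difference 0.85, adjusted p = 0.0264) was lost without PBS 3, Zymosan 2 or Zymosan 4 (adjusted p = 0.0702 to 0.106). Clec4d, the lectin that pairs with Mincle, measured 3.08, 8.11, 5.81 and 8.0 and 6.5, 32.1, 27.6 and 40.6 FPKM, and its log2 difference of 1.75 did not pass (adjusted p = 0.0789) but was called with the replicate block (adjusted p = 0.00619). Cd36, a scavenger receptor, was low at 2.21 ± 1.03 and 5.66 ± 2.22 FPKM, and its call (adjusted p = 0.0437) was lost without PBS 1, PBS 2, PBS 4, Zymosan 1, Zymosan 2 or Zymosan 3 (adjusted p = 0.0706 to 0.139) and within the larger set (adjusted p = 0.0635). With the replicate block 4 receptor genes were higher and 1 lower, and within the larger set 7 were higher.

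In the Syk and CARD9 branch 1 of 28 tested members rose and 4 fell, a share of 17.9% beside 18.9% of all tested genes, with a list median of −0.11. Within the larger set 6 rose and 6 fell, and with the block 1 rose and 6 fell. Pik3cd, the leukocyte catalytic subunit of PI3 kinase, measured 5.65, 16, 11.8 and 12.6 FPKM with PBS and 1.2, 4.32, 3.9 and 3.28 FPKM with zymosan, and its decrease (adjusted p = 0.0146) was lost without PBS 2 or Zymosan 1 (adjusted p = 0.0563 to 0.057). Inpp5d (SHIP-1), the phosphatase that opposes PI3 kinase, fell from 39.9 ± 2.8 to 26 ± 1.52 FPKM and Nfatc2 from 2.08 ± 0.0826 to 1.06 ± 0.262 FPKM, 2 calls that rescaling ended (adjusted p = 0.124 and 0.0595). Vav3, a guanine nucleotide exchange factor, was the fourth gene called lower and lost its call without PBS 2, PBS 3, PBS 4, Zymosan 1 or Zymosan 3 (adjusted p = 0.0548 to 0.139). Syk itself measured 5.5 ± 1.45 and 5.35 ± 1.78 FPKM and Card9 42.6 ± 5.74 and 34.7 ± 4.69 FPKM, with intervals of −0.73 to 0.63 and −0.83 to 0.25 around the log2 differences, and neither passed, but Card9 was called lower within the larger set (adjusted p = 0.0361). The abundant adaptors Fcer1g and Tyrobp, which carry the activating motif for Syk, measured 1765 ± 409 and 1348 ± 371 FPKM with PBS and 1646 ± 508 and 1182 ± 266 FPKM with zymosan. Blnk, a linker that binds Syk and was outside the list, was among the 30 largest decreases, from 10.8, 19.8, 23.9 and 18.9 to 1.28, 3.11, 4.42 and 2.4 FPKM (log2 difference −2.36, adjusted p = 1.96e-05).

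The MyD88 branch showed increases in 3 of 15 tested members and decreases in 0. Its share of called genes was close to the 18.9% of all tested genes called in either direction. Irak3 (IRAK-M), a negative regulator of the pathway in macrophages, measured 1.48, 3.51, 2.52 and 4.34 FPKM in PBS 1 to 4 and 7.13, 12.4, 13.1 and 16 FPKM in Zymosan 1 to 4 (log2 difference 1.74, SE 0.29, adjusted p = 0.000301). Irak2, a kinase of the receptor complex, rose from 14.8 ± 2.98 to 50.1 ± 10.5 FPKM and Map3k8 (TPL2), the kinase that links IKK to ERK, from 10 ± 2.93 to 27.7 ± 8.56 FPKM, and neither overlapped between groups. Myd88 measured 30.7 ± 3.72 and 36.6 ± 6.87 FPKM, Irak4 6.93 ± 1.58 and 6.9 ± 1.36 FPKM, and the IKK genes Chuk, Ikbkb and Ikbkg lay within −0.05 to 0.13 log2 of PBS, none of which passed, although Myd88 was called higher within the larger set (adjusted p = 0.0341). The list's median was 0.05, and 5 members were higher after rescaling. With the block 4 were higher and 1 lower, and within the larger set 6 and 2.

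Several inhibitors of NF-kB rose, and the subunits tested did not pass. Of 18 tested genes, 8 rose and 0 fell, a share of 44.4% beside 4.66% of all tested genes higher. The list median was 0.79 against −0.18 for all genes. Nfkbia (IkB alpha), which holds NF-kB in the cytoplasm, measured 77.1, 66.2, 65.1 and 70.8 FPKM with PBS and 215, 209, 178 and 204 FPKM with zymosan (log2 difference 1.51, SE 0.12, adjusted p = 5.63e-08). Zc3h12a (Regnase-1), an RNase that degrades cytokine transcripts, rose from 7.15 ± 1.98 to 36.2 ± 6.7 FPKM, and Nfkbiz, a nuclear cofactor for secondary NF-kB targets such as Il6, from 15.9 ± 3.74 to 105 ± 26.7 FPKM. Bcl3, Nfkbib and Tnip1, a partner of the ubiquitin editor A20, rose by 1.4, 1.09 and 1.16 on the log2 scale. Among other inhibitors Nfkbie (IkB epsilon), Tnip2 and the deubiquitinase Cyld did not pass, with log2 differences of 0.03, 0.25 and −0.28, although rescaling called Tnip2 higher (adjusted p = 0.0334) and the larger set called Cyld lower (adjusted p = 0.0178). Nfkb1 measured 13.9 ± 9.06 and 13.9 ± 6.99 FPKM and Rela 33.1 ± 4.31 and 39.5 ± 3.7 FPKM (adjusted p = 0.95 and 0.229). Rescaling brought the higher members to 13, with Rela among them, and the replicate block brought them to 11, with Nfkb2 and Traf1 among them.

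Among immediate early genes and AP-1 subunits, several relatives of Fos and Jun rose, while Fos and Jun did not pass. Of 27 tested members 10 rose and 1 fell, a share of 40.7% beside 18.9% of all tested genes. Fosl1 rose from 12.4 ± 2.14 to 28 ± 4.91 FPKM, Junb from 50.2 ± 5.87 to 130.3 ± 19.7 FPKM and Fosl2 from 3.79 ± 0.472 to 6.94 ± 1.12 FPKM, all AP-1 subunits. Fos itself was low, at 3.71 ± 0.791 and 3.06 ± 0.251 FPKM, and Jun at 27.6 ± 5.92 and 33.1 ± 11.2 FPKM, neither of which passed. Gadd45b, a stress sensor, measured 6.8, 3.63, 9.38 and 6.98 FPKM with PBS and 42.9, 39.9, 32.5 and 30.1 FPKM with zymosan. Zfp36 (tristetraprolin), which speeds decay of Tnf mRNA, rose by 1.72, Ier3 by 1.73 and Maff by 1.69 on the log2 scale. Klf2, a factor of quiescence in myeloid cells, fell from 1.12 ± 0.361 to 0.145 ± 0.169 FPKM. Dusp1, the MAP kinase phosphatase that limits p38 signalling, rose from 33.5 ± 2.59 to 99.4 ± 10.6 FPKM and Dusp2 from 9.12 ± 3.02 to 19.4 ± 4.41 FPKM. These were 2 of the 9 tested phosphatases, a share of 22.2%, and 0 fell. Among all tested genes 4.66% were higher and 18.9% were called in either direction. The call of Dusp2 was lost without PBS 3 (adjusted p = 0.0599).

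Among feedback inhibitors of cytokine receptors, Socs1, Socs2, Socs3 and Cish rose, whereas Socs4, Socs5 and Socs6 did not pass (log2 differences 0.11, 0.15 and −0.32). Socs3, which blocks signalling of the interleukin-6 receptor subunit gp130, measured 2.18, 3.92, 2.77 and 3.85 FPKM in PBS 1 to 4 and 22.6, 67.2, 57.9 and 69.2 FPKM in Zymosan 1 to 4 (log2 difference 3.63, SE 0.59, adjusted p = 0.000213). Cish rose from 1.02 ± 0.315 to 13.1 ± 2.37 FPKM, Pim1, a kinase gene induced by STAT factors, from 8.26 ± 3.22 to 60.1 ± 21.5 FPKM and Socs1 from 2.03 ± 0.37 to 5.61 ± 1.1 FPKM. With Socs2, whose call was lost without PBS 3 (adjusted p = 0.0652), these were the 5 of 18 members that rose. As 1 member fell, the called share was 33.3%, beside 18.9% of all tested genes. Stat3 measured 19 ± 4.67 and 17.6 ± 4.54 FPKM and did not pass. Of 20 macrophage transcription factors 5 rose, Hif1a (41.4 ± 9.31 to 86.5 ± 19.7 FPKM), Cebpd, Nfil3, Ets2 and Batf (8.42 ± 1.66 to 22.3 ± 2.33 FPKM), and 2 fell, Irf8 among them. Together the called factors were 35.0% of those tested, beside 18.9% of all tested genes. Irf8, a microglial lineage factor, lost its call without PBS 2, PBS 3, PBS 4, Zymosan 1, Zymosan 3 or Zymosan 4 (adjusted p = 0.0547 to 0.123). Spi1, which encodes the lineage factor PU.1, measured 173 ± 14.2 and 170.2 ± 8.78 FPKM, with an interval of −0.34 to 0.3 around the log2 difference.

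Neutrophil-attracting chemokines had the largest increases of their family. Cxcl1 measured 24.8, 18.1, 9.75 and 35.5 FPKM in PBS 1 to 4 and 1767, 2232, 2050.0 and 2500.0 FPKM in Zymosan 1 to 4. The groups were far apart (log2 difference 6.66, SE 0.28, adjusted p = 3.95e-12). Cxcl2 rose from 6.6 ± 4.61 to 379.6 ± 145 FPKM and Cxcl3 from 0.325 ± 0.415 to 113 ± 61.3 FPKM, and since these 3 genes are close relatives, the division of reads between them is uncertain. Pf4, a platelet and macrophage chemokine, measured 16.4, 14.6, 17.6 and 32.6 FPKM with PBS and 56.5, 45.7, 68.1 and 193 FPKM with zymosan, and it is also a marker of border macrophages. Another such marker, Mrc1, did not rise, and Cd163 was at 0 in all 8 libraries. In the other direction, Cxcl17 fell from 2.36 ± 0.76 to 0.576 ± 0.357 FPKM, and Cxcl16, a membrane-bound chemokine, from 205 ± 37.4 to 123 ± 19.8 FPKM, a call that rescaling ended (adjusted p = 0.128). Cxcl10, an interferon target, measured 85.3 ± 31.5 and 46.5 ± 10.4 FPKM and did not pass (adjusted p = 0.0829), but was called lower with the block (adjusted p = 0.0061).

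Promoters of Cxcl1 and Il6 are shown because both genes rose and both carry the letters of an NF-kB site, GGGA and TTCC with any 2 bases between them, on either strand, close to the gene's start. Both are RefSeq sequences of assembly GRCr8, which is not the authors' build, and end at the base before the gene's start, with the matched letters in capitals. For Cxcl1 (chromosome 14, minus strand, chr14:17479322-17479441) 2 overlapping matches begin 84 bases before the start, and for Il6 (chromosome 4, minus strand, chr4:5894576-5894695) 1 match begins 68 bases before it.
Cxcl1: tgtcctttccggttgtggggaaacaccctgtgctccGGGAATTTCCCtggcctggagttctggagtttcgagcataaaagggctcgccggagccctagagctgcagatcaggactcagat
Il6: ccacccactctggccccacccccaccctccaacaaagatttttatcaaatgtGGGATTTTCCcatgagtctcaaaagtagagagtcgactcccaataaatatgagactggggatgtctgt
Such a match was found in 1.29% of 27457 promoters of 300 bases (250 before to 50 after the start), in 1.47% of the 7325 among tested genes and in 3 of the 19 largest increases with a promoter in the table, Cxcl1, Il6 and Lcn2. A match describes the letters and is not evidence of a bound site.

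CC chemokines rose in 8 of 10 tested members (80.0%, beside 4.66% of all tested genes), with a list median of 1.61. Ccl3, which attracts monocytes and T cells through CCR1 and related receptors, measured 1460.1, 1183, 874 and 1328 FPKM with PBS and 8299, 7080.1, 5954 and 6944 FPKM with zymosan (log2 difference 2.56, SE 0.21, adjusted p = 1.12e-07). It was already abundant with PBS, and the fold is smaller than that of Cxcl1 while the gain in FPKM is larger. Ccl4 rose from 419 ± 146 to 1118 ± 378 FPKM, Ccl7 from 767 ± 335 to 2213 ± 453 and Ccl12 from 811 ± 336 to 3156 ± 509 FPKM, the last 2 being close relatives of Ccl2 whose reads may be shared. Ccl20, the ligand of CCR6, was listed at 0 in all PBS libraries and at 2.03, 4.08, 5.19 and 4.14 FPKM with zymosan. Ccl9 rose by 1.58 and Ccl5 by 1.62 on the log2 scale, Ccl5 from 1.1 ± 0.983 to 5.08 ± 1.89 FPKM. Ccl6 measured 50.8 ± 27.8 and 24.3 ± 20.3 FPKM and did not pass (adjusted p = 0.281), but was called lower with the block (adjusted p = 0.0123), and Ccl22, a dendritic cell chemokine, was low in both groups, at 0.264 ± 0.315 and 0.276 ± 0.551 FPKM.

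**Figure D4:**
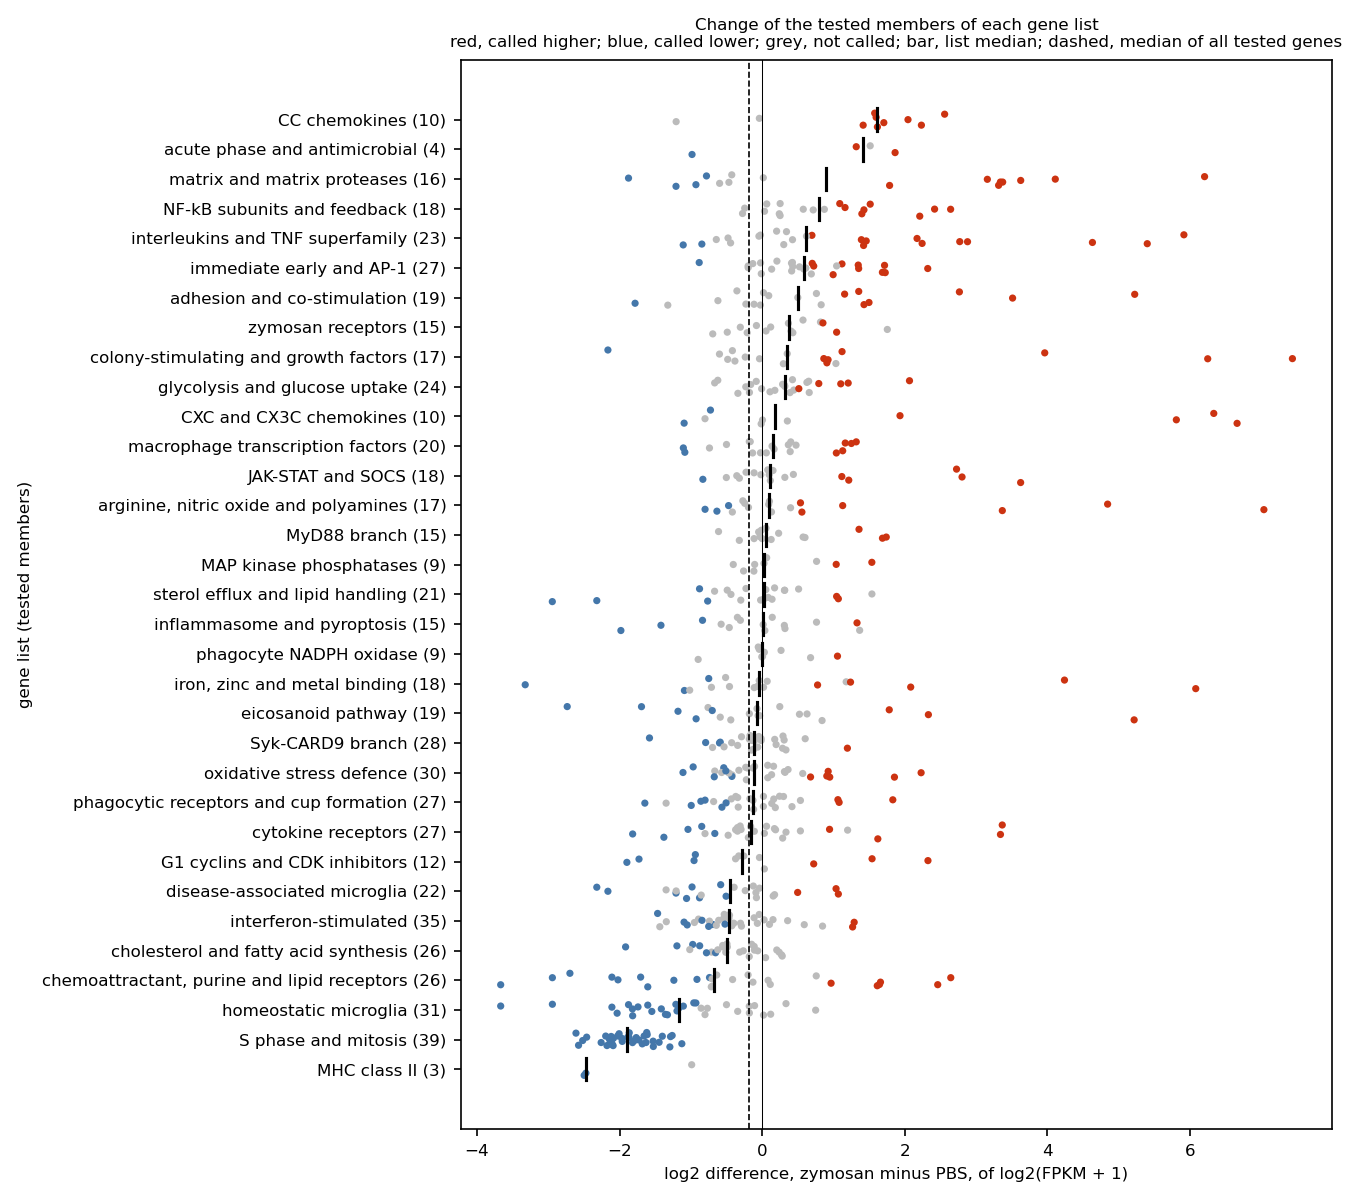
Log2 difference (zymosan minus PBS) of each tested member of 33 gene lists, ordered by list median; red points were called higher, blue lower and grey not called. CC chemokines have the highest median (1.61) and the lists of MHC class II (−2.47, 3 genes) and of S phase and mitosis (−1.89, 39 genes) the lowest, against −0.18 for all tested genes.

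Both forms of interleukin-1 rose, and Il6, Il10, Il18 and Il23a rose as well, whereas Il15 and Il33 did not pass (log2 differences 0.43 and −0.05). Il1b, the secreted form, measured 208, 271, 193 and 268 FPKM in PBS 1 to 4 and 7301, 10720, 10801 and 11199 FPKM in Zymosan 1 to 4, and Il1a, the alarmin form, 41.3, 33.2, 25.7 and 88.4 and 1663, 3105, 2835 and 3119 FPKM (log2 differences 5.4 and 5.91). Zymosan 1 was the lowest for both. The antagonist Il1rn measured 92.5 ± 12.6 and 119 ± 27.1 FPKM and did not pass (adjusted p = 0.377), so the change was unequal across the family. Il10, the main anti-inflammatory cytokine of macrophages, rose from 0.307, 0.392, 1.17 and 0.39 to 9.61, 6.52, 12.7 and 13.7 FPKM (log2 difference 2.88, SE 0.29, adjusted p = 9.54e-07). Il6, an inducer of the acute phase response, measured 23.8, 14.4, 13 and 33.6 FPKM with PBS and 421, 488, 500.3 and 675 FPKM with zymosan (log2 difference 4.63, SE 0.27, adjusted p = 6.91e-10). Il23a, the subunit particular to interleukin-23, measured 0.475, 1.5, 0.725 and 0.0862 FPKM with PBS and 12.6, 9.05, 4.53 and 18.9 FPKM with zymosan. Il12b, the subunit that interleukin-23 shares with interleukin-12, was at most 0.328 FPKM in any zymosan library and was not tested, and Il12a was also below the filter. Ebi3, a subunit of interleukin-27 and interleukin-35, rose from 31.8 ± 4.53 to 155 ± 26.1 FPKM.

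The tumour necrosis factor superfamily changed in both directions. Tnf measured 58.9, 52.3, 34.9 and 46.8 FPKM with PBS and 171, 133, 103 and 116 FPKM with zymosan (log2 difference 1.42, adjusted p = 0.000314). Tnfsf15 (TL1A), a T cell costimulator, rose from 9.0 ± 2.26 to 24.7 ± 1.87 FPKM, whereas Tnfsf13b (BAFF), a survival factor for B cells, fell from 1.25 ± 0.383 to 0.243 ± 0.123 FPKM. Il16 fell from 1.3 ± 0.537 FPKM to near 0 (0, 0, 0.143 and 0.0441 FPKM). In all, 11 of 23 tested members of the interleukin and TNF list rose and 2 fell (4 within the larger set), with a median of 0.62. That is a share of 56.5% beside 18.9% of all tested genes. Of the 11, 2 were under 1 FPKM in every PBS library, and Lif, which was uneven between zymosan libraries (2.48, 4.54, 6.31 and 7.4 FPKM), lost its call without PBS 1, PBS 2, PBS 3, PBS 4, Zymosan 2, Zymosan 3 or Zymosan 4 (adjusted p = 0.051 to 0.083).

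Growth factor genes changed in both directions. Csf2 (GM-CSF), which acts on granulocytes and macrophages, measured 0.948, 0.404, 0 and 0 FPKM with PBS and 85.8, 86.4, 85.2 and 139 FPKM with zymosan. Inhba, the subunit of activin A, rose from 0.196 ± 0.149 to 17.8 ± 4.04 FPKM (log2 difference 3.96, SE 0.22, adjusted p = 3.02e-10). It was under 1 FPKM in every PBS library and passed the filter only through other groups, zymosan included. Igf1, which microglia supply to developing neurons and myelin, fell from 39.6, 22.8, 44.7 and 50.3 to 8.22, 5.79, 8.51 and 8.42 FPKM (log2 difference −2.16, adjusted p = 2.55e-06). Csf1 measured 7.82 ± 0.997 and 7.77 ± 2.1 FPKM and Tgfb1 7.32 ± 2.46 and 4.81 ± 2.98 FPKM, and neither passed. The list had 7 higher members and 1 lower of 17, and 4 of the 7 were under 1 FPKM in every PBS library. Its share of called genes was 47.1%, beside 18.9% of all tested genes. With the block 8 were higher and 2 lower, and within the larger set 8 and 3.

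Receptors for these mediators changed in both directions. Tnfrsf1b (TNF receptor 2) measured 2.42, 6.99, 7.17 and 7.07 FPKM in PBS 1 to 4 and 36.2, 85, 75 and 82.7 FPKM in Zymosan 1 to 4, against 41.8 ± 5.33 and 43.8 ± 6.39 FPKM for Tnfrsf1a (TNF receptor 1), which did not pass. Il2ra, the alpha chain of the interleukin-2 receptor, rose from 0.143 ± 0.147 to 11.2 ± 4.76 FPKM and Il7r from 38.5 ± 10.5 to 120.1 ± 26.1 FPKM, whereas Il2rb, the beta chain, was at most 0.0462 FPKM and was not tested. Csf1r, the receptor on which microglia depend for survival, fell from 425, 596, 487 and 540.3 to 131, 157, 157 and 131 FPKM, and Tnfrsf11a (RANK) from 8.0 ± 1.49 to 2.59 ± 1.24 FPKM. Csf3r, the receptor for the product of Csf3, fell from 1.97 ± 0.727 to 0.636 ± 0.354 FPKM, and Csf2ra, for that of Csf2, measured 48 ± 5.11 and 54.2 ± 5.04 FPKM and did not pass. In total 4 of 27 cytokine receptors rose and 5 fell, a share of 33.3% beside 18.9% of all tested genes. Within the larger set 7 rose and 9 fell.

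Receptors for chemoattractants, purines and lipids fell in 10 of 26 tested members and rose in 6, with a median of −0.67. That is a share of 61.5% beside 18.9% of all tested genes. Cx3cr1, the fractalkine receptor, measured 39.3, 96.1, 62.9 and 76.6 FPKM with PBS and 1.9, 3.99, 4.73 and 7.95 FPKM with zymosan (log2 difference −3.67, SE 0.5, adjusted p = 3.37e-05). It had the largest decrease of all tested genes that met the naming rule. The purine receptors P2ry12 and P2ry13, through which microglia sense extracellular ADP, fell from 4.44 ± 1.01 to 0.261 ± 0.217 FPKM and from 2.46 ± 0.729 to 0.123 ± 0.117 FPKM. Adora2a, an adenosine receptor, moved the other way, from 1.05, 0.43, 0.0642 and 0.535 to 6.01, 7.64, 9.51 and 10.5 FPKM, and P2ry2, a receptor for ATP and UTP, rose from 9.68 ± 1.61 to 32.2 ± 1.93 FPKM. Hcar2, the niacin and hydroxybutyrate receptor, rose from 23.5 ± 1.24 to 137 ± 35.1 FPKM, C3ar1 (complement C3a receptor) from 25.8 ± 4.98 to 81.7 ± 18.7 and Ccrl2 from 24.4 ± 2.23 to 79.2 ± 7.67 FPKM. Gpr183, an oxysterol receptor, Gpr34, Cmklr1, the chemerin receptor, and Lpar6 fell, with signed log2 differences of −2.7, −2.94, −1.7 and −1.24. C5ar1, the most abundant of the list, measured 345 ± 56 and 372 ± 52.8 FPKM and did not pass.

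A group of neighbouring matrix metalloprotease genes rose, along with Mmp9 and Mmp14. Mmp13, a collagenase, measured 0, 0.0685, 0 and 0 FPKM in PBS 1 to 4 and 45.1, 81, 104 and 78.4 FPKM in Zymosan 1 to 4, and Mmp3, a stromelysin, 0, 0.019, 0.034 and 0 and 12.8, 13.1, 18.4 and 23.8 FPKM. Both were close to 0 with PBS. Mmp12, the macrophage elastase, measured 17.2, 18.8, 18.5 and 26.2 FPKM with PBS and 192, 247, 222 and 414 FPKM with zymosan (log2 difference 3.63, SE 0.3, adjusted p = 7.54e-08), and Mmp10, the second stromelysin, rose from 2.14 ± 1.23 to 29.2 ± 8.08 FPKM. Mmp9, a gelatinase encoded elsewhere, was the most abundant, from 78.1, 58.1, 137 and 104 to 882, 865, 1065 and 958 FPKM, and Mmp14, a membrane-bound protease, rose from 6.87 ± 1.05 to 79.6 ± 16.7 FPKM. Adamts4, an aggrecanase, rose from 0.193 ± 0.134 to 10.3 ± 3.9 FPKM. Timp1, an inhibitor of these proteases, measured 83.4 ± 16.8 and 62.1 ± 14.9 FPKM, did not pass, and was called lower with the block (adjusted p = 0.159 and 0.00815). Of 16 tested members of the matrix list 8 rose and 4 fell, among them Sparc, a collagen-binding protein (7.17 ± 1.57 to 1.21 ± 0.229 FPKM), whereas rescaling gave 1 decrease and the larger set 7. The called share was 75.0% beside 18.9% of all tested genes.

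The promoters of the 4 neighbouring protease genes are shown because the genes rose together and each holds the letters of an AP-1 site, TGACTCA or its reverse complement, within 90 bases of the start. All 4 lie on the plus strand of chromosome 8 in GRCr8, at chr8:12782709-12782828, chr8:12866532-12866651, chr8:12925161-12925280 and chr8:12974587-12974706, and the matches, in capitals, begin 66, 87, 71 and 61 bases before the start.
Mmp13: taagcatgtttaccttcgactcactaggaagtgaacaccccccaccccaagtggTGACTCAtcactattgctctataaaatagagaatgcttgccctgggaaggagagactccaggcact
Mmp12: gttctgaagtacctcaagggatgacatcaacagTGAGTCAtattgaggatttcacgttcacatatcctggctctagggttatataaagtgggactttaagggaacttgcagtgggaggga
Mmp3: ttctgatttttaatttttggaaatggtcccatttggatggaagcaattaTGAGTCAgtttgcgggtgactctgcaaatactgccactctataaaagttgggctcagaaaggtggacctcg
Mmp10: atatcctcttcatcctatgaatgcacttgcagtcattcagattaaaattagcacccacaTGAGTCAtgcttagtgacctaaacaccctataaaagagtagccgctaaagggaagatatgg
The AP-1 letters occurred in 4.53% of the 27457 promoters, in 3.36% of those of tested genes and in 7 of the 19 largest increases with a promoter (36.8%). Of those 7, 4 are these proteases, which are duplicated neighbours and so not independent, and the others are Il1a, Mt2A and Tnfrsf1b.

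In the eicosanoid list 3 of 19 tested members rose and 5 fell, a share of 42.1% beside 18.9% of all tested genes. With the block 5 rose and 7 fell, and within the larger set 6 and 7. Ptgs2, inducible cyclooxygenase, measured 1.21, 1.23, 1.23 and 3.37 FPKM with PBS and 33, 134, 109.8 and 180.1 FPKM with zymosan (log2 difference 5.22, SE 0.74, adjusted p = 5.23e-05). Zymosan 1 was far below the other zymosan libraries. Ptges, the inducible prostaglandin E synthase, rose from 0.053 ± 0.106 to 5.12 ± 3.82 FPKM and Ptger2, a prostaglandin E2 receptor, from 9.22 ± 3.76 to 32.9 ± 7.45 FPKM. The other prostaglandin E synthases Ptges2 and Ptges3 did not pass (log2 differences −0.04 and −0.18). On the leukotriene side Alox5ap, the partner of 5-lipoxygenase, fell from 104, 87.7, 66.4 and 88.1 to 16.4, 8.98, 11.9 and 11.7 FPKM, and Lta4h, which makes leukotriene B4, from 35.4 ± 9.32 to 10.1 ± 1.36 FPKM. Alox5 itself (14.8 ± 1.09 and 7.63 ± 2.77 FPKM) was called lower, a call lost without PBS 2, PBS 4, Zymosan 1 or Zymosan 2 (adjusted p = 0.0536 to 0.0923). The constitutive Ptgs1 (82.8 ± 18.6 and 54.5 ± 11.2 FPKM) and Pla2g4a, the phospholipase that releases arachidonic acid (60.7 ± 16.5 and 35.4 ± 9.87 FPKM), did not pass but were called lower with the block (adjusted p = 0.0435 and 0.00161).

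Nos2 and Arg1, which use arginine, rose with the transporter Slc7a2. Over the list of arginine, nitric oxide and polyamine genes 6 of 17 rose and 3 fell, a share of 52.9% beside 18.9% of all tested genes. Nos2, inducible nitric oxide synthase, measured 0.519, 1.08, 0.319 and 1.66 FPKM with PBS and 89.7, 315, 268 and 428 FPKM with zymosan. Arg1, the arginase that competes for the same substrate, measured 0.0695, 0.592, 0.424 and 0.177 and 8.98, 7.59, 43.8 and 7.45 FPKM, with Zymosan 3 far above the other zymosan libraries (log2 difference 3.37, SE 0.51, adjusted p = 9.67e-05). Its PBS libraries were all under 1 FPKM, so it passed the filter only through other groups, zymosan included. Slc7a2, an arginine transporter, rose from 0.73 ± 0.351 to 53.2 ± 23.4 FPKM, Ass1, which regenerates arginine, from 0.288 ± 0.178 to 1.84 ± 0.549 FPKM and Gch1, which starts synthesis of the cofactor of Nos2, from 53.6 ± 6.75 to 79 ± 16.7 FPKM, the last call lost without Zymosan 4 (adjusted p = 0.0594). The 3 decreases were Spr, which completes synthesis of the same cofactor, Srm, spermidine synthase, and Oaz1, an inhibitor of polyamine synthesis (log2 differences −0.8, −0.64 and −0.47). Rescaling ended all 3 (adjusted p = 0.0886, 0.272 and 0.539), and the call of Srm was also lost without PBS 1, PBS 2, PBS 4, Zymosan 2, Zymosan 3 or Zymosan 4 (adjusted p = 0.0651 to 0.158) and within the larger set (adjusted p = 0.0695). IRG1, as the table names the enzyme that makes itaconate, measured 5.9, 7.02, 2.68 and 7.69 and 49, 104, 79.4 and 147 FPKM. In the glycolysis list 5 of 24 tested members rose and 0 fell, with a median of 0.32. That is a share of 20.8%, beside 4.66% of all tested genes higher and 18.9% called in either direction. The block brought the increases to 11, the larger set to 12 with 2 lower. Slc2a1 (GLUT1), the glucose transporter, rose from 24.5, 37, 40.8 and 40.5 to 106, 166, 155 and 185 FPKM, Slc16a3, the lactate exporter, from 24.7 ± 6.52 to 58.4 ± 14.8 FPKM and Aldoa from 1196 ± 64.2 to 1709 ± 94.8 FPKM. Hk2 (6.45 ± 2.73 and 5.9 ± 3.09 FPKM), Pkm (733 ± 120.5 and 582 ± 117 FPKM) and Gapdh (1078 ± 14.5 and 1072 ± 19.3 FPKM) did not pass.

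In the machinery of the oxidative burst, 1 of 9 tested genes rose and 0 fell, a share of 11.1%. Among all tested genes 4.66% were higher and 18.9% were called in either direction. With the block or within the larger set 2 rose and 1 fell. Rac2, the GTPase that activates the phagocyte NADPH oxidase, measured 571, 618, 589 and 596 FPKM with PBS and 1238, 1264, 1215 and 1221 FPKM with zymosan (log2 difference 1.06, SE 0.09, adjusted p = 2.47e-07). Cybb, the catalytic subunit, measured 117, 199.9, 175 and 159 and 59, 104, 98.6 and 87 FPKM and Ncf1, the p47 organiser, 67.7, 82, 82.7 and 105 and 97.6, 134, 145 and 171 FPKM. Neither passed (adjusted p = 0.124 and 0.0972), and with the block Cybb was called lower and Ncf1 higher (adjusted p = 0.0233 and 0.00352). Cyba, the partner of Cybb in the membrane, measured 485 ± 75.1 and 487 ± 77.5 FPKM. Of 30 genes of oxidative defence 6 rose and 6 fell (10 fell with the block or within the larger set), and the decreases after rescaling were 2, Gpx3 and Osgin1. The called share was 40.0% beside 18.9% of all tested genes. Sod2, which encodes mitochondrial superoxide dismutase, rose from 271 ± 33.5 to 1272 ± 137 FPKM, Prdx5 from 686 ± 176 to 1259 ± 139 and Slc7a11, the cystine importer that supplies glutathione synthesis, from 4.55 ± 1.61 to 19.2 ± 6.94 FPKM.

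Inflammasome genes fell at the level of the adaptor and the executioner. Pycard (ASC), the adaptor, measured 113, 79.7, 68.5 and 59.8 FPKM with PBS and 31.9, 14.5, 21 and 13.2 FPKM with zymosan (log2 difference −1.98, SE 0.34, adjusted p = 0.000299). Casp1, the protease that cleaves pro-interleukin-1 beta, fell from 45.6 ± 3.53 to 25.1 ± 1.57 FPKM and Gsdmd, the pore former, from 10.3 ± 0.47 to 3.24 ± 0.478 FPKM. Nlrp3, the sensor, measured 11.1, 37.8, 34 and 28.3 and 23.9, 105, 89.2 and 87.8 FPKM, did not pass (adjusted p = 0.155) and was called higher with the block (adjusted p = 0.00332). With Nod2, whose increase was lost without Zymosan 2 or Zymosan 4 (adjusted p = 0.0507 to 0.0594), these were the 1 increase and 3 decreases among 15 tested members. That is a share of 26.7% beside 18.9% of all tested genes. The block gave 3 increases and 4 decreases, and the larger set 4 and 6. The transcript of the substrate Il1b rose while those of Pycard, Casp1 and Gsdmd fell in the same libraries.

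Among genes that bind iron or zinc, Lcn2 and the metallothioneins rose, transferrin fell and the ferritins did not pass. Lcn2, which sequesters bacterial siderophores, measured 2.15, 4.38, 3.65 and 2.58 FPKM in PBS 1 to 4 and 256, 309, 239 and 311 FPKM in Zymosan 1 to 4. Tf, transferrin, fell from 53.6, 79.9, 54.1 and 82.6 to 3.78, 6.98, 6.09 and 6.47 FPKM. The metallothioneins Mt2A and Mt1, which bind zinc, rose from 0.802 ± 0.272 to 36.2 ± 18.2 FPKM and from 5.54 ± 3.28 to 27.9 ± 17.4 FPKM, and as near-identical genes they may share reads. Slc11a1 (NRAMP1), which pumps metal ions out of the phagosome, rose from 153 ± 18.1 to 263 ± 33.3 FPKM. The ferritin genes Fth1 (11040 ± 2655 and 11145 ± 2348 FPKM) and Ftl1 (6102 ± 657 and 5652 ± 671 FPKM) did not pass, and the iron exporter Slc40a1, called lower at 17.2 ± 5.02 and 7.64 ± 2.99 FPKM, lost its call without PBS 4, Zymosan 1, Zymosan 2 or Zymosan 3 (adjusted p = 0.053 to 0.0774).

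Lipid genes fell in part. Lpl, lipoprotein lipase, measured 222, 480.3, 761 and 642 FPKM with PBS and 44.7, 91.3, 189 and 104 FPKM with zymosan, and the groups were separate, but the highest zymosan library came close to the lowest PBS library. Fads1 and Fads2, the desaturases of polyunsaturated fatty acids, fell from 24.7 ± 6.83 to 6.08 ± 2.77 FPKM and from 10.2 ± 2.16 to 4.1 ± 1.78 FPKM, and Dhcr7, the last step of cholesterol synthesis, from 12.9 ± 2.5 to 6.11 ± 1.55 FPKM. In all 6 of 26 synthesis genes fell and 0 rose, a share of 23.1%. Among all tested genes 14.2% were lower and 18.9% were called in either direction. Within the larger set 12 fell and 1 rose. Ch25h, which makes 25-hydroxycholesterol, the precursor of the ligand of Gpr183, rose from 550.5, 577, 428 and 659 to 948, 1170.2, 1253 and 1247 FPKM (log2 difference 1.07, adjusted p = 0.000606). Abca1, the cholesterol exporter, measured 19.1 ± 9.3 and 57.2 ± 24.4 FPKM, did not pass (adjusted p = 0.0538) and was called higher with the block (adjusted p = 4.59e-05).

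Genes typical of resting microglia fell in 19 of 31 tested members, a share of 61.3% beside 14.2% of all tested genes lower. Their median was −1.17 against −0.18 for all genes, and the block brought the decreases to 22. The 3 chains of complement C1q measured 10.3 ± 2.95, 55.2 ± 14.7 and 19.6 ± 7.12 FPKM (C1qa, C1qb and C1qc) with PBS and 3.89 ± 1.33, 13 ± 4.53 and 4.63 ± 0.73 FPKM with zymosan, and the call of C1qa was lost without PBS 1, PBS 2, PBS 3, Zymosan 2, Zymosan 3 or Zymosan 4 (adjusted p = 0.0515 to 0.138) and after rescaling (adjusted p = 0.13). Trem2, a lipid-sensing receptor, measured 111, 104, 80 and 158 FPKM with PBS and 33.2, 28.6, 27.7 and 40.7 FPKM with zymosan (log2 difference −1.74, SE 0.24, adjusted p = 4.18e-05). Entpd1 (CD39), which removes extracellular ATP, fell from 3.14 ± 0.892 to 0.616 ± 0.0915 FPKM and Ctss, a protease of antigen processing, from 224 ± 13.6 to 98.9 ± 3.18 FPKM. Not all members fell, since Aif1 (IBA1, 324 ± 44.1 and 409.5 ± 62.2 FPKM), Itgam and Tyrobp did not pass. Genes of the disease-associated microglial state moved both ways, 3 higher and 8 lower of 22, a share of 50.0% beside 18.9% of all tested genes. Ctsl, a cathepsin, rose from 706 ± 55 to 1456 ± 203 FPKM, while Spp1 (osteopontin) varied widely in both groups, 13351, 415, 14735 and 9469 FPKM with PBS and 12059, 399, 13052 and 6362 FPKM with zymosan, and did not pass. After rescaling 2 members of this list were higher and 4 lower.

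Phagocytic receptors changed in both directions. Of the Fc receptor genes, Fcgr2b and Fcgr2a rose, Fcgr2b from 95.5, 88.8, 83.4 and 67.2 to 276, 295, 368 and 263 FPKM (log2 difference 1.83, SE 0.15, adjusted p = 7.54e-08), and as close relatives they may share reads. Fcgr2b encodes the inhibitory Fc receptor. Fcgr1a, the high-affinity receptor, was called lower (222 ± 29.3 and 150.1 ± 23.6 FPKM, adjusted p = 0.0473), a call lost without PBS 1, PBS 2, PBS 4, Zymosan 1, Zymosan 2 or Zymosan 3 (adjusted p = 0.0611 to 0.142) and after rescaling (adjusted p = 0.101), and Fcgr3a did not pass (log2 difference −0.43). Cd47, the signal that restrains phagocytosis of the cell that carries it, rose from 109.5 ± 7.5 to 230.0 ± 18.8 FPKM. Itgb5, part of a receptor for apoptotic cells, fell from 4.99 ± 3.52 to 0.714 ± 0.35 FPKM, and the inhibitory receptors Cd300a and Cd300lf fell, with signed log2 differences of −0.86 and −1.0. Genes that build the phagocytic cup, Cdc42 (582 ± 27.5 and 589.6 ± 38 FPKM), Coro1a (444 ± 60.5 and 407 ± 62.9 FPKM) and Arpc2 (489 ± 17.2 and 581 ± 51.9 FPKM), did not pass, and Arpc2 was called higher with the block (adjusted p = 0.0392). Over the list 3 of 27 rose and 6 fell, against 5 and 10 with the block and 7 and 9 within the larger set. The called share was 33.3% beside 18.9% of all tested genes.

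Of 3 tested genes of the MHC class II list 2 fell, both for DM, while Cd274, Cd40 and several adhesion genes rose. The block brought these decreases to 3. RT1-DMa and RT1-DMb, the rat genes for the DM molecule that loads peptides onto MHC class II, measured 80.9, 84.1, 60.3 and 74.7 and 70.5, 64.9, 47.6 and 62.1 FPKM in PBS 1 to 4 and 11.1, 11.9, 13.3 and 13.3 and 15.2, 7.3, 9.27 and 10 FPKM in Zymosan 1 to 4. The class II genes RT1-Da, RT1-Db1, RT1-Ba and RT1-Bb themselves were under 1 FPKM in all 8 libraries, so DM fell where its partner was scarcely present. Cd274 (PD-L1), a ligand that restrains T cells, rose from 4.97, 7.24, 7.31 and 10.7 to 26, 71.6, 70.8 and 71.5 FPKM (log2 difference 2.77, SE 0.48, adjusted p = 0.000372), and Cd40 from 29.8 ± 9.27 to 77.2 ± 21.9 FPKM. Cd69, a lectin of activated leukocytes, rose from 0.364 ± 0.371 to 52 ± 22.7 FPKM, Itgal (CD11a) from 6.95 ± 3.15 to 90.1 ± 37.3, its ligand Icam1 from 32.7 ± 7.42 to 96.4 ± 29.8 and Cd44, a hyaluronan receptor, from 148 ± 25 to 403 ± 83.1 FPKM, whereas Icam2 fell from 20.3 ± 0.813 to 5.5 ± 2.46 FPKM. The adhesion and costimulation list had 7 higher and 1 lower of 19, a share of 42.1% beside 18.9% of all tested genes. With the block 8 were higher and 2 lower, and within the larger set 9 and 3. Cd86 (59.2 ± 6.38 and 86.3 ± 24.4 FPKM) and Cd80 (2.19 ± 1.14 and 1.46 ± 0.911 FPKM) did not pass, and Cd86 was called higher after rescaling (adjusted p = 0.0412).

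Every tested gene of S phase and mitosis fell, 39 of 39, with a median of −1.89, and all 39 were also lower after rescaling, with the replicate block and within the larger library set. The list took 0.293, 0.399, 0.349 and 0.275% of the summed FPKM in PBS 1 to 4 and 0.0728, 0.093, 0.0949 and 0.0513% in Zymosan 1 to 4. Cdk1, the kinase of mitotic entry, measured 65.6, 82.4, 68.7 and 55.9 FPKM with PBS and 10.7, 14.6, 15 and 6.02 FPKM with zymosan (log2 difference −2.52, SE 0.35, adjusted p = 3.69e-05). Spc25, a kinetochore subunit, measured 18.2, 26.7, 19.8 and 18 and 1.53, 3.83, 3.97 and 1.49 FPKM and Plk1, a mitotic kinase, 24.9, 41.3, 34.4 and 24.3 and 3.04, 6.26, 5.59 and 3.01 FPKM. In S phase, Mcm6, part of the replicative helicase, fell from 30.2 ± 9.67 to 6.6 ± 3.24 FPKM, Rrm2, which makes deoxynucleotides, from 109 ± 16.9 to 24.6 ± 6.29 FPKM and Dut from 56.3 ± 17.6 to 9.63 ± 4.06 FPKM. The levels with zymosan were low and not 0. In G1, Ccnd1 (cyclin D1) fell from 196, 232, 187 and 223 to 70.3, 53, 48.9 and 51 FPKM and its partner Cdk4 from 85.6 ± 7.99 to 44.2 ± 3.28 FPKM, while the inhibitors of these kinases went both ways. Cdkn2b (p15), Cdkn2a and Cdkn1a (p21) rose, Cdkn2b from 2.88, 5.71, 5.01 and 6.01 to 21.4, 30.2, 26.1 and 35.7 FPKM, whereas Cdkn2c (p18) fell from 7.2 ± 3.29 to 1.4 ± 0.859 FPKM and Cdkn1b (p27) did not pass (log2 difference −0.04). Mcm4 lost its call without PBS 2, PBS 3 or Zymosan 1 (adjusted p = 0.059 to 0.0733) and Rrm1 without PBS 2, PBS 3, PBS 4, Zymosan 1 or Zymosan 4 (adjusted p = 0.056 to 0.0882).

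Promoters of Cdk1 and Spc25 are shown because both genes fell and both hold the core letters of the cell cycle homology region (CHR), TTTGAA on either strand, which is known from promoters of mitotic genes. They end at the base before the start, as above, and the matches are in capitals, for Cdk1 (chromosome 20, plus strand, chr20:19265173-19265292) from 72 and from 16 bases before the start and for Spc25 (chromosome 3, minus strand, chr3:74396719-74396838) from 57 bases before it.
Cdk1: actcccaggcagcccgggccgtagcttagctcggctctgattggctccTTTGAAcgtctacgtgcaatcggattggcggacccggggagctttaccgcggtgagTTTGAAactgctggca
Spc25: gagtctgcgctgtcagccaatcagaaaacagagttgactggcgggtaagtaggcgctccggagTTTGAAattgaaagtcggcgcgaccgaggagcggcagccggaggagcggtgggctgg
These 6 letters were found in 18.1% of the 27457 promoters, in 11.5% of those of tested genes and in 13 of the 30 promoters of the S phase and mitosis list (43.3%). CCAAT, which often accompanies it, was found in 37.7%, 38.5% and 70.0% (21 of 30), and the E2F letters TTCCCGC in 4.47%, 8.79% and 20% (6 of 30). The list was drawn up by cell cycle function, so these shares describe its members and not their decrease. As above, a match describes the letters and is not evidence of a bound site.

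Interferon-stimulated genes did not move as a group. Of 35 tested members 2 rose and 7 fell, a share of 25.7% beside 18.9% of all tested genes, with a median of −0.47. After rescaling 3 were higher and 3 lower. Within the larger set 4 rose and 13 fell. Usp18, which limits interferon receptor signalling, measured 45.8, 64.7, 49.1 and 51.5 FPKM with PBS and 97.6, 129.7, 153 and 145 FPKM with zymosan (log2 difference 1.29, adjusted p = 0.000406), and Oasl rose from 137 ± 22.8 to 335 ± 74.3 FPKM. Zbp1, a sensor of Z-form nucleic acid, fell from 4.06 ± 1.24 to 0.796 ± 0.262 FPKM. Isg15 measured 153 ± 43.4 and 167 ± 50.1 FPKM, Ifit3 71.9 ± 15.1 and 81.8 ± 25.5 and Irf7 128 ± 20.7 and 79.1 ± 28.2 FPKM, none of which passed. Mx1 and Mx2, a pair of similar genes at 54.5 ± 23.4 and 22.4 ± 4.92 FPKM with PBS and 20.2 ± 9.6 and 8.55 ± 3.29 FPKM with zymosan, did not pass but were called lower with the block (adjusted p = 0.0169 and 0.0307).

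Zymosan was next compared with PAM3CSK4, a synthetic lipopeptide that TLR2 senses together with TLR1. Doses differed (100 ug/mL and 1 ng/mL), and the labels do not say that they were matched in strength. limma called 0 of the 8858 genes between these 2 groups, with 299 at an unadjusted p under 0.05. Over all genes the 95% interval of the log2 difference had a median half-width of 0.528, and 82.1% of these intervals reached no further than 1 unit from 0, so that smaller differences were not detectable for many genes. With the replicate block 8 genes were called, Cd68, Ctsb, Dab2, Trem2 and Tmpo higher with zymosan and Cd69, Batf and S100a5 lower. They are named here after their values were seen, as are the genes in the next sentences. Cd68, a lysosomal glycoprotein of macrophages, measured 268, 194, 248 and 229 FPKM with zymosan and 176, 135, 167 and 151 FPKM with PAM3CSK4, without overlap (log2 difference 0.57, 95% interval 0.34 to 0.81, adjusted p = 0.26, with the block 0.0429). Cd69 measured 39.4, 53.1, 32 and 83.4 and 116, 173, 128 and 184 FPKM (log2 difference −1.58, adjusted p = 0.26, with the block 0.0265). With PBS levels of 332 ± 17.6 FPKM for Cd68 and 0.364 ± 0.371 FPKM for Cd69, the zymosan mean lay between those of PBS and PAM3CSK4 for both. Trem2, at 113 ± 32.6 FPKM with PBS, measured 32.6 ± 5.97 FPKM with zymosan and 19.7 ± 5.72 with PAM3CSK4 (with the block adjusted p = 0.0461).

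Il17f, a cytokine known from T helper 17 cells, had its highest level with zymosan. It was listed at 0 in all 4 PBS libraries and measured 4.63, 7.76, 2.88 and 5.3 FPKM in Zymosan 1 to 4, 0.231 to 2.26 FPKM with PAM3CSK4 and 0 to 3.23 FPKM with LPS. The zymosan and PAM3CSK4 libraries did not overlap, but the difference failed the correction (log2 difference 1.49, unadjusted p = 0.000742, limma adjusted p = 0.822), and against LPS the groups overlapped (log2 difference 1.8, adjusted p = 0.104). The T cell genes Cd3e, Cd3d and Cd3g were at 0 in the zymosan and PBS libraries. Ifnb1, interferon beta, measured 0.727, 0.65, 3.08 and 2.57 FPKM with zymosan and 4.19, 9.06, 9.38 and 4.88 FPKM with PAM3CSK4, and this difference too did not pass (log2 difference −1.57, adjusted p = 0.902).

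Between zymosan and LPS, which signals through TLR4, 8 genes were called (0.0903% of those tested), 3 higher and 5 lower with zymosan, and 719 reached an unadjusted p under 0.05. Lcn2 measured 256, 309, 239 and 311 FPKM with zymosan and 595, 1036, 869 and 761 FPKM with LPS (log2 difference −1.53, SE 0.21, adjusted p = 0.00522). Crip2, a LIM domain protein, measured 8.74, 8.44, 5.92 and 8.47 and 27.3, 24.5, 20.2 and 22.4 FPKM (log2 difference −1.47, adjusted p = 0.00522), and the PBS libraries, at 4.95 to 10.8 FPKM, spanned the 4 zymosan libraries. Only Lcn2 and Crip2 were called in all 18 alternative fits. Within the larger set 16 were called, 10 higher and 6 lower, and fits with library quality weights or a library-set term called 183 (151 higher) and 96 (81 higher), so that the split between higher and lower turned round. After rescaling, 11 genes were called, 3 higher and 8 lower, and the count was 2 to 5 without LPS 1, 2 or 3 or without Zymosan 1, 2 or 3. Ccl5, a chemokine of the interferon-dependent arm of TLR4, measured 6.57, 2.96, 4.01 and 6.77 FPKM with zymosan and 40.3, 38.6, 25.5 and 25 FPKM with LPS (log2 difference −2.48, SE 0.41, adjusted p = 0.016). The groups were widely separate. Calm2, a calmodulin gene whose reads may be shared with its relatives, and Stap2, which is under the level set for naming, were the other 2 lower with zymosan (149 ± 11.5 and 219 ± 10.3 FPKM, 1.14 ± 0.536 and 4.04 ± 1.23 FPKM). Higher with zymosan were Dnase2, the lysosomal DNase (68.2 ± 5.96 and 41.1 ± 3.81 FPKM), Rrm2 (24.6 ± 6.29 and 8.6 ± 3.43 FPKM) and Nradd (10.8 ± 1.58 and 4.89 ± 0.523 FPKM). For each of these 3 the PBS level was above both (102 ± 4.65, 109 ± 16.9 and 19.9 ± 2.53 FPKM). Other interferon-linked genes such as Isg15 (167 ± 50.1 and 233 ± 110.3 FPKM) and Cxcl10 (46.5 ± 10.4 and 42 ± 14.2 FPKM) did not pass between zymosan and LPS (adjusted p = 0.74 and 0.836).

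**Figure D5:**
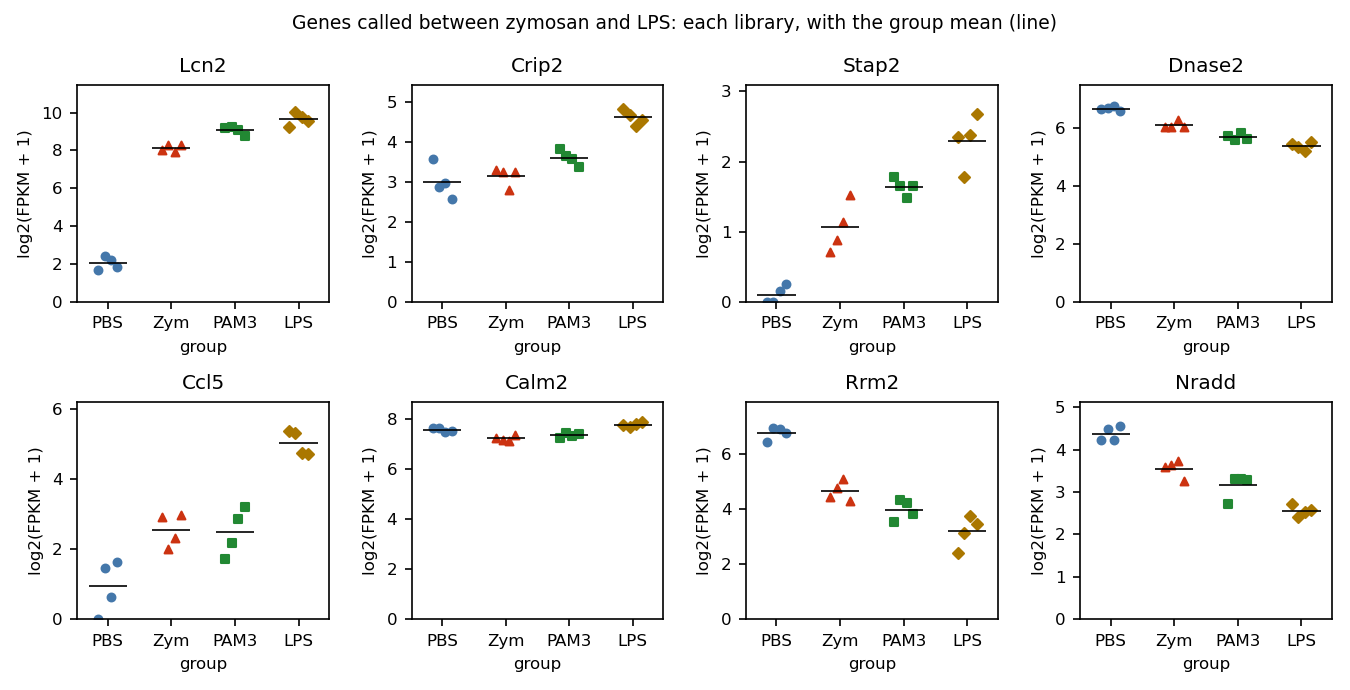
Levels, as log2(FPKM + 1), of the 8 genes called between zymosan and LPS, in each library of PBS, zymosan (Zym), PAM3CSK4 (PAM3) and LPS; lines are group means. Zymosan lies between PBS and LPS for Lcn2, Stap2, Ccl5, Dnase2, Rrm2 and Nradd, near PBS for Crip2 and below both for Calm2.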

How the data were processed

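The authors deposited 1 table of FPKM values for all 20 libraries. Per the submitters' processing notes, reads were handled with HISAT2, Cufflinks 2.2.1, featureCounts 1.4.6 and DESeq2 on build rn6, with the role of each not given in the sources used here, and per the labels the libraries were made with Smart-Seq2, which does not keep strand. FPKM is relative to each library's total, so large increases lower the other values, and without counts depth and counting error are unknown. An exact 0 can be a failed estimate. Symbols were spelled by RefSeq (GRCr8), 14814 by symbol and 2065 by synonym, and 431 were unmatched. Reads shared between near-identical genes make those genes uncertain.

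The test was limma 3.58.1 (R 4.3.3) on log2(FPKM + 1), 5 group means over all 20 libraries, a mean-variance trend and two-sided moderated tests, adjusted by Benjamini and Hochberg over 8858 genes. The labels do not say whether libraries came from separate cultures or animals, so p-values measure the spread between these libraries. Same-numbered libraries deviated together (correlations of residuals 0.824, 0.318, 0.568 and 0.539 for PBS and zymosan 1 to 4, and 0.792, 0.564, 0.554 and 0.525 for PAM3CSK4 and zymosan), so the number was taken as a pairing found in the data. The 33 gene lists and the comparisons were chosen with earlier results of these data known. Named genes were the 30 called genes that rose most and the 30 that fell most, without overlap and with a mean of at least 5 FPKM, the largest changes and the pathway members of each list, and the largest called differences from the other agonists. Further list members were chosen after their values were seen, and some genes are not reported here. Lists are described by counts and medians, with no set test. The fit was tested on simulated data. Plots were made with matplotlib 3.10.9 (Python 3.11.15). Alternatives were another pseudocount, other filters, median-ratio rescaling, quality weights, 2 groups only, the replicate block, a library-set term, the larger set alone, zeros as missing, and leaving out each library.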

Additional observations from a re-analysis of the deposited data

Results flagged for a closer look

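In 42 of 517 groups of 4 libraries (260 named genes, PBS and zymosan), the highest or lowest library lay far from the other 3 by Dixon's criterion. About 1 in 20 such groups would do so by chance, and 26 of the 42 were in PBS 1 or Zymosan 1, the libraries of the smaller set. Values are FPKM of the library that stood apart, against the range of the other 3. PBS 1 lay below the others for Fads1 (14.6 against 27.3 to 29.4), Hcar2 (21.6 against 23.9 to 24.3), Ikbkb (8.72 against 16.6 to 17.8), Nfkb2 (14.5 against 26.2 to 27.2) and Pla2g4a (36.2 against 65.6 to 71). It also lay below them for Ptges3 (118 against 148 to 149), Socs4 (3.89 against 7.07 to 7.32), Tlr6 (5.69 against 10.4 to 10.9), Tnfrsf1b (2.42 against 6.99 to 7.17) and Tnip1 (13.9 against 17.5 to 18.1). It also lay below them for Vav3 (5.57 against 10.3 to 10.8). PBS 1 lay above the others for Fcer1g (2377 against 1536 to 1605), Gpx3 (3.76 against 0.903 to 1.33), Spr (13.4 against 10.7 to 10.8) and Tyrobp (1901 against 1102 to 1213). Zymosan 1 lay below the others for Adamts4 (4.47 against 11.9 to 12.9), Cd274 (26 against 70.8 to 71.6), Cish (9.61 against 14 to 14.8), Il1b (7301 against 10720 to 11199) and Irak4 (4.86 against 7.52 to 7.61). It also lay below them for Nod2 (0.723 against 2.93 to 3.38), Tlr2 (100.0 against 199.5 to 211) and Vav3 (2.82 against 5.41 to 5.89). Zymosan 1 lay above the others for Cdkn2c (2.68 against 0.84 to 1.07), Timp1 (84.4 against 53.3 to 56.4) and Tnfsf15 (27.5 against 23.6 to 24). PBS 2 was the highest library for Mmp13 (0.0685 against all at 0). PBS 3 was the highest library for Ccl22 (0.732 against 0.051 to 0.152) and Il10 (1.17 against 0.307 to 0.392). PBS 4 was the highest library for Pf4 (32.6 against 14.6 to 17.6), Ptges (0.212 against all at 0) and Ptgs2 (3.37 against 1.21 to 1.23). Zymosan 2 was the highest library for Ccl22 (1.1 against all at 0) and Gpx3 (0.898 against 0.149 to 0.274). Zymosan 2 was the lowest library for Igf1 (5.79 against 8.22 to 8.51). Zymosan 3 was the highest library for Arg1 (43.8 against 7.45 to 8.98), Dnase2 (77.1 against 64.5 to 65.6) and Lyve1 (2.03 against 1.6 to 1.64). Zymosan 3 was the lowest library for Crip2 (5.92 against 8.44 to 8.74). Zymosan 4 was the highest library for Csf2 (139 against 85.2 to 86.4), Pf4 (193 against 45.7 to 68.1) and Slc40a1 (12.1 against 5.61 to 6.61). Arg1 was still called higher without Zymosan 3 (adjusted p = 0.000188, limma), and Pf4 without Zymosan 4 (adjusted p = 0.00918). The calls of Nod2, Slc40a1 and Vav3 depended on single libraries, as given above.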

How the results depend on the processing

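Of the 260 genes named, 183 were called between zymosan and PBS, and 0 of these changed direction under the alternatives in which they were tested, whereas 33 of the 77 not called changed sign under at least 1. Rescaling ended 11 of the calls, the other settings at most 6 each, and leaving out 1 library 5 to 11. For zymosan against PBS, the 1670 calls (413 higher, 1257 lower) became 3497 with library quality weights (873 and 2624), 2619 with the replicate number as a block (664 and 1955), 3366 with a library-set term (847 and 2519) and 3533 within the larger set (934 and 2599), and rescaling turned the split to 734 higher and 811 lower. Leaving out single libraries gave 1256 to 1548 calls, 318 to 416 higher and 919 to 1199 lower. For zymosan against PAM3CSK4, where limma called 0, the counts were 1 with no filter on low values (1 higher), 18 with quality weights (10 higher, 8 lower), 8 with the block (5 and 3), 8 with the set term (6 and 2) and 1 within the larger set (1 lower), and 0 with every library left out in turn. For zymosan against LPS, the 8 calls (3 higher, 5 lower) became 183 with quality weights (151 and 32), 152 with the block (132 and 20), 96 with the set term (81 and 15), 16 within the larger set (10 higher), 3 with only the 2 groups fitted (0 higher, 3 lower), 11 after rescaling (8 lower) and 6 at a pseudocount of 0.1 FPKM (3 lower), and 2 to 9 with 1 library left out (0 to 4 higher, 2 to 5 lower). The cause of these shifts was not tested. Same-numbered LPS and zymosan libraries did not all deviate together (correlations 0.507, −0.279, 0.569 and 0.437), so that block rests on a shared number only. Without counts, the depth behind any value is unknown, and 41 listed zeros in 21 genes stood beside 3 libraries of the same group at 5 FPKM or more.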
